A study of Mus musculus with 4 samples.

Results

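Transcripts of the phagocyte NADPH oxidase were examined in bone-marrow cells of mice without Asxl1 (KO) and of wild-type (WT) mice. The members were 7 genes chosen by name, with earlier results of these data known: Cybb, Cyba, Ncf1, Ncf4, Rac1, Rac2 and Hvcn1. Each was found in 1 row of a table of 17956 single-locus rows. RNA was taken from C57BL/6 bone-marrow Lin-Kit+ cells, a fraction that lacks surface markers of mature lineages, carries the stem cell factor receptor Kit and holds stem and progenitor cells. There were 2 libraries of genotype Asxl1-/- and 2 of wild type, each from 2000000 cells. How and in which cells Asxl1 was deleted, and the age of the mice, are not given in the labels. ASXL1 is a chromatin regulator, and the series relates expression to its binding and to that of the cohesin complex.

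The phagocyte NADPH oxidase passes electrons from NADPH across a membrane to oxygen and so makes superoxide, the first product of the respiratory burst with which neutrophils and macrophages kill microbes. Its catalytic core is a membrane pair of gp91phox (NOX2, from Cybb) and p22phox (from Cyba). On stimulation, cytosolic subunits, among them p47phox (from Ncf1) and p40phox (from Ncf4), move to the membrane together with a Rac GTPase loaded with GTP. The voltage-gated proton channel HV1 (from Hvcn1) lets protons follow the electrons and keeps the enzyme running. In humans, loss of the core or cytosolic subunits causes chronic granulomatous disease. Transcripts of these subunits accumulate as granulocyte and monocyte precursors mature.

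Promoter sequences are shown for Cybb, Cyba and Ncf1 because these were the members for which the reference held one. They run from 250 bases before to 50 after the annotated start, are from RefSeq (GRCm38.p6), and lie on the minus strand at chrX:9469275-9469574, chr8:122432891-122433190 and chr5:134229576-134229875. Capitals mark matches, on either strand, to the PU.1 core GAGGAA, recognised by a factor of myeloid and B cells, or to the CCAAT box CCAAT.
Cybb: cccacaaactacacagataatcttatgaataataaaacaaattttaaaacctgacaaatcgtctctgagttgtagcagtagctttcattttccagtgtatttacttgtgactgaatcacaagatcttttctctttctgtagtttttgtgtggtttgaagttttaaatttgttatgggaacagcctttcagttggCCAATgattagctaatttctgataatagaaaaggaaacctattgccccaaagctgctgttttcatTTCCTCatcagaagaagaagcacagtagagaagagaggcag
Cyba: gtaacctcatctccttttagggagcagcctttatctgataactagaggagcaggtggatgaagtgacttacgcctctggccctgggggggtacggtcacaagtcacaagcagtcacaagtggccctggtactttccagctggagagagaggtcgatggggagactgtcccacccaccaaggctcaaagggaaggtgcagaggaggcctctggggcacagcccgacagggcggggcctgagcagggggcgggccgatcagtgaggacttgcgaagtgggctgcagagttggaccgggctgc
Ncf1: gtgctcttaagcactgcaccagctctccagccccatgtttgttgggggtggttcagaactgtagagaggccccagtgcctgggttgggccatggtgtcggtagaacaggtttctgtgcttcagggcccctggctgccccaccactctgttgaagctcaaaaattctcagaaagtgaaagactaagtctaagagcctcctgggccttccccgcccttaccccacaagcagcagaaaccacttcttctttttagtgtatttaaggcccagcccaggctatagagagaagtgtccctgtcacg
The Cybb promoter held 1 CCAAT box, beginning 56 bases before the start, and 1 match to the PU.1 core, on the opposite strand and beginning at base 10 of the transcript. The Cyba and Ncf1 promoters held neither. Among 32544 distinct promoters of the same length, 28.1% held the PU.1 core and 37.4% the CCAAT box. No base belonged to more than 1 match. These letters describe the sequence, and binding was not measured here.

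The libraries held 83586916 and 76688583 recovered reads in KO and 46597871 and 49764454 in WT. Values below are normalised read counts, that is, reads multiplied by the authors' factor for each library. Differences between KO and WT are given as log2 fold changes ± SE, on the scale of log2(value + 1), with adjusted p-values from limma over 13764 tested loci. Asxl1 (chromosome 2) had 146 and 135 in KO, against 9742 and 9472 in WT (-6.09 ± 0.09, adjusted p = 8.89e-06), so all libraries matched their genotype label. Kit, the marker that defines the gate, had 18483 and 18889 in KO, against 17739 and 16149 in WT. The row holding Xist had 89290 and 147 in KO, against 103006 and 2123 in WT. The Y-linked Eif2s3y had 3.03 and 7647 in KO, against 11.7 and 6581 in WT, so the first library of each genotype carried high Xist and the second high Y-linked transcripts. The libraries of a genotype thus do not share a single animal as their source. How many animals went into each library is not given in the labels. The SE and p-values of limma rest on the spread between these libraries, drawn toward that of other loci of similar level.

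Oxidase transcripts were mostly higher without Asxl1. Of the 7 members, all tested with limma, 6 rose, 0 fell and 1 did not pass the threshold of 0.05, where 11.9% of all tested loci rose, 8.97% fell and 20.9% were called in either direction. The median log2 fold change of the members was 0.56, and that of all tested loci was -0.01. By mean level the members lay above 88.7% (the Hvcn1 row) to 99.5% (Cybb) of tested loci. The shares given for all tested loci are not matched to that level. The catalytic subunit gene and the genes of p47phox and p40phox rose by more than 1.5-fold, and Rac1 was the member that did not pass. At an unadjusted p below 0.05 limma gave 1 member lower, Rac1, and edgeR and DESeq2 also called 0 members lower. Summed over the 7 rows, the normalised read count was 247306 and 249940 in KO, against 165698 and 173189 in WT. In bulk RNA, more cells of a type and more RNA per cell cannot be told apart.

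**Figure D1:**
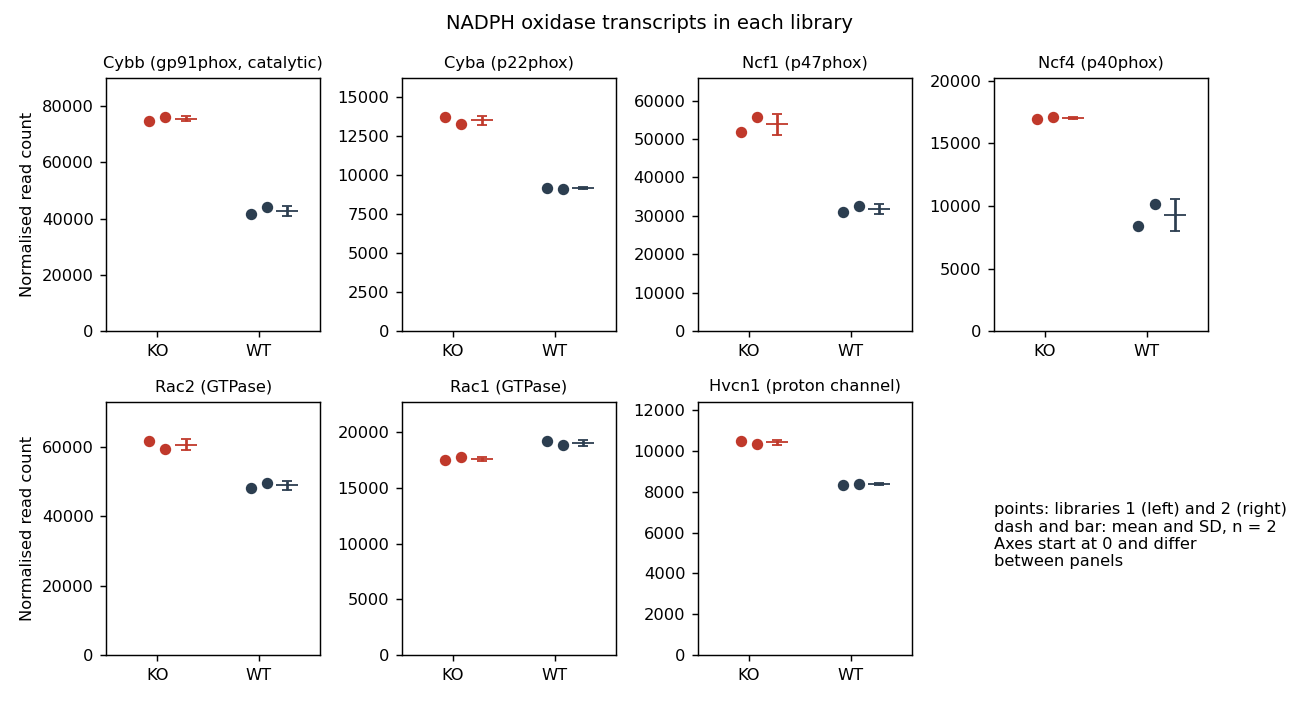
Normalised read count of each member, with KO left of WT. Points are libraries, dashes with bars are means with SD (n = 2), and each axis starts at 0. The KO libraries lie above the WT libraries in 6 panels and below them for Rac1.

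The membrane core rose in both parts. Cybb (chromosome X, 9012377 to 9046450, mm9), which encodes the subunit that carries the electrons, had 74923 and 76178 in KO, against 41541 and 44156 in WT. The KO libraries were 1.76-fold higher (0.82 ± 0.05, adjusted p = 0.00125), and the groups were far apart relative to their spread. The difference was 0.85 between the libraries with high Xist and 0.79 between those with high Y-linked transcripts, so the X-linked gene differed similarly in both pairs. Cyba (chromosome 8, 124948670 to 124956840), whose product stabilises gp91phox and offers the docking site for p47phox, had 13733 and 13308 in KO, against 9204 and 9145 in WT. It rose by 0.56 ± 0.05 (adjusted p = 0.00189), with 0.58 and 0.54 within the pairs. Its row also bears the name of a cDNA clone, AK154184, whose reads are not separated from those of Cyba.

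The cytosolic subunits rose as well. Ncf1 (chromosome 5, 134659907 to 134705495) encodes p47phox, the organiser that is phosphorylated on activation and tethers the cytosolic complex to p22phox. It had 51871 and 55740 in KO, against 30948 and 32699 in WT (0.76 ± 0.06, adjusted p = 0.00165). Its row is merged with the neighbouring gene Gtf2ird2, a relative of the transcription factor TFII-I, so reads of that gene are included. Ncf4 (chromosome 15, 78075240 to 78093010), whose p40phox product binds a phosphoinositide of the phagosome membrane, had 16954 and 17114 in KO, against 8390 and 10188 in WT. The groups did not overlap, but the WT libraries differed more from each other, relative to their mean, than for any other member, with means of 17034 ± 113 in KO and 9289 ± 1271 in WT (SD, n = 2 each). Its rise of 0.88 ± 0.09 (adjusted p = 0.00343) came to 1.01 between the high-Xist libraries and 0.75 between the others.

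Of the GTPases of the complex, Rac2 was called and Rac1 was not, which is no test of a difference between them. Rac2 (chromosome 15, 78389598 to 78403213), the isoform largely restricted to blood cells and the main one of the mouse neutrophil oxidase, had 61796 and 59492 in KO, against 48030 and 49726 in WT. It rose by 0.31 ± 0.05 (adjusted p = 0.00875), the lowest fold change among the members that rose. Rac1 (chromosome 5, 144266348 to 144288861), which is found in nearly all cells and also moves the actin cytoskeleton, had 17513 and 17751 in KO, against 19248 and 18864 in WT. Both KO libraries lay below both WT libraries, as they did for 33.6% of tested loci, but the difference of -0.11 ± 0.04 did not pass (adjusted p = 0.115). It passed as lower with upper-quartile scaling (-0.17, adjusted p = 0.0427) and with CPM scaling (-0.18, adjusted p = 0.0348). Transcripts of the 2 genes share no identical run longer than 29 bases in the GENCODE M21 annotation, and no source used here says how the counting placed reads that match several genes.

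The proton channel gene Hvcn1 shares its row with Tctn1, also under its older name Tect1, a gene of the ciliary transition zone (chromosome 5, 122659745 to 122714469). The row had 10517 and 10358 in KO, against 8335 and 8411 in WT, and rose by 0.32 ± 0.05 (adjusted p = 0.00815). Which gene of the row rose cannot be told apart. Hvcn1 is also strongly expressed by B cells, whose markers were lower in KO, as described below. The part of B cells in the values of the row was not tested.

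**Figure D2:**
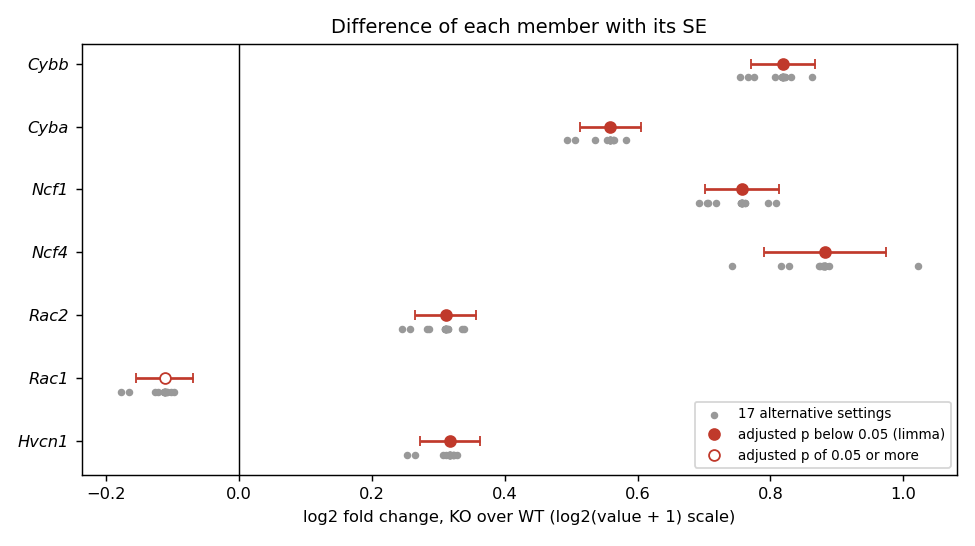
Log2 fold change of KO over WT for each member with its SE, and below it the values under 17 alternative settings as grey points. All values are above 0 for 6 members and below 0 for Rac1, from 0.74 to 1.02 for Ncf4 and from -0.18 to -0.10 for Rac1.

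Both KO libraries lay above both WT libraries for 6 of the 7 members, as they did for 32.5% of tested loci. Cybb, Ncf1 and Ncf4 had a higher fold change than 93.4%, 92.5% and 94.3% of tested loci, and Rac2 and the Hvcn1 row a higher one than 80.7% and 80.9%. The calls of Cybb, Cyba and Ncf1 were kept in all 17 alternatives, whose adjusted p reached 0.0424, 0.0465 and 0.0457. The calls of Rac2 and the Hvcn1 row were lost without WT replicate 1 (adjusted p = 0.0754 and 0.0696), and that of the Hvcn1 row without WT replicate 2 (adjusted p = 0.058), fits in which the KO pair alone gives the residual spread. Those 2 calls and that of Ncf4 (adjusted p = 0.0562) were also lost when limma was fitted without its variance trend.

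**Figure D3:**
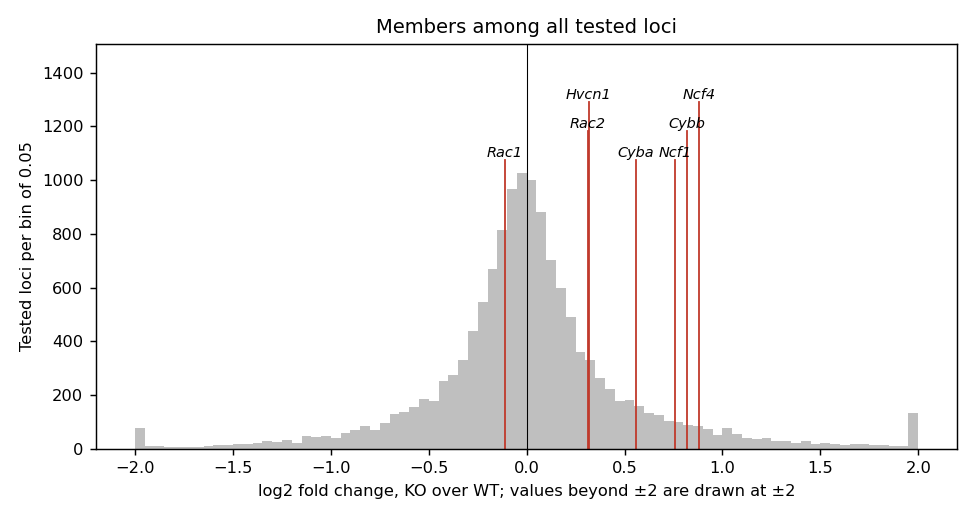
Histogram of the log2 fold changes of KO over WT for 13764 tested loci in bins of 0.05, with a line at each member. The members other than Rac1 lie to the right of 0, with Ncf4 farthest at 0.88.

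Ratios within a library do not depend on the scaling between libraries, and were computed for 6 pairs of members. They are not divided by transcript length and therefore say nothing on relative numbers of molecules. The ratio of Rac2 to Rac1 was 3.53 and 3.35 in KO, against 2.495 and 2.64 in WT. That of Cybb to Cyba, the membrane pair, was 5.46 and 5.72 in KO, against 4.51 and 4.83 in WT. The ratio of Cybb to Rac2 was 1.21 and 1.28 in KO, against 0.865 and 0.888 in WT. The ratio of Cybb to the Hvcn1 row was 7.12 and 7.35 in KO, against 4.98 and 5.25 in WT. The ratio of Ncf1 to Ncf4 overlapped between the groups, with 3.06 and 3.26 in KO, against 3.69 and 3.21 in WT. The ratio of Cybb to Ncf1 moved least, with 1.44 and 1.37 in KO, against 1.34 and 1.35 in WT. An exact two-sided permutation test gave p = 0.333 for each ratio other than Ncf1 to Ncf4 (p = 0.667), and 0.4 and 0.667 after adjustment over the 6. With 2 libraries against 2, 0.333 is the smallest p this test can give.

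**Figure D4:**
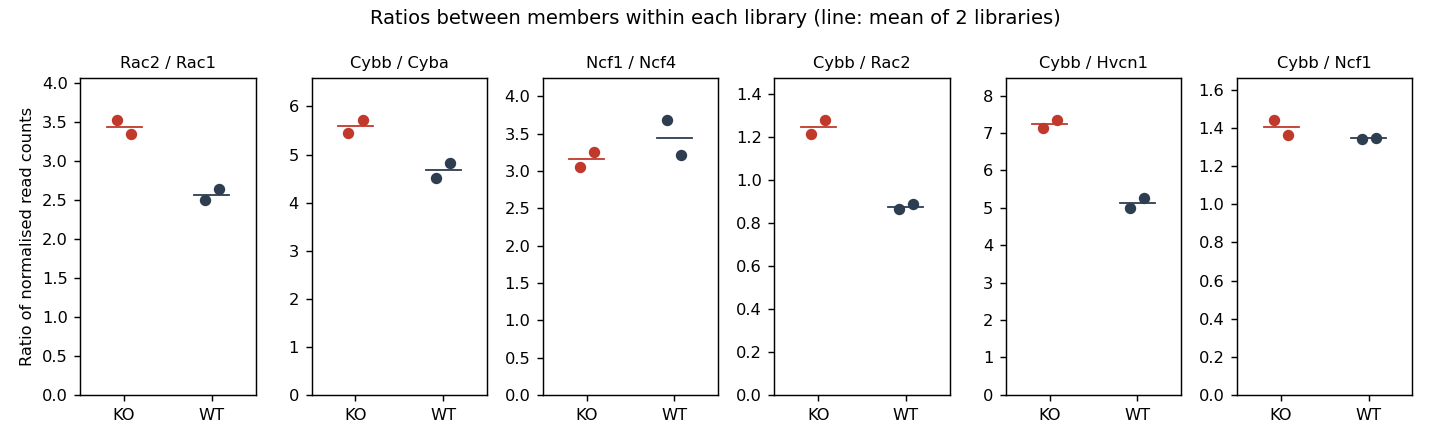
Ratio of the normalised read counts of a pair of members within each library, with KO left of WT, a line at the mean of 2 libraries and axes from 0. KO libraries lie above WT libraries except for Ncf1 over Ncf4, where they overlap.

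Levels can be compared between genes per length for the 4 members with a row of their own, taking the exons of coding transcripts in GENCODE M21 as the length. Per kilobase, the normalised read count of Rac2 was 20341 and 19583 in KO, against 15810 and 16368 in WT. That of Cybb was 15767 and 16031 in KO, against 8742 and 9292 in WT. Ncf4 had 11581 and 11690 per kilobase in KO, against 5731 and 6959 in WT, and Rac1 had 4154 and 4210 in KO, against 4566 and 4474 in WT. The order of levels, Rac2, Cybb, Ncf4 and Rac1, was the same in all 4 libraries, with no overlap of neighbours within a genotype. The lengths are of another build and need not be those of the authors' annotation.

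The loci most like 3 of the members were sought among 7228 loci with a mean CPM of at least 10, by the Euclidean distance of centred log2 profiles over the 4 libraries. For Cybb they were Tcp11l2 (distance 0.02), the X-linked Nhsl2 (0.03) and S100a9, a subunit of the neutrophil protein calprotectin (0.05). For Ncf1 they were Ccrl2, a chemokine-binding receptor (0.03), Clec4e, the phagocyte lectin Mincle that senses mycobacterial glycolipid (0.04), and Dgat2, an enzyme of triglyceride synthesis (0.04). For Rac2 they were Tk2 (0.01), Ppp1r12c (0.01) and Tnrc6b (0.02). Among the members themselves, Rac2 and the Hvcn1 row were closest (0.04), followed by Cybb and Ncf1 (0.08). A profile over 4 libraries of 2 genotypes holds little beyond the size of the difference, so many loci with a similar fold change lie close.

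Genes that assemble or activate the oxidase were taken from a list of kinases, exchange factors and small GTPases. In that list 4 of 22 tested genes rose and 1 fell, with a median of 0.12, where 11.9% of all tested loci rose and 8.97% fell. Rap1b, a Ras-like GTPase of adhesion, rose to 24034 ± 33.2 in KO, against 18896 ± 37.1 in WT (0.35 ± 0.04, adjusted p = 0.00494). Pik3r5, a regulatory subunit of the phosphoinositide kinase that answers chemoattractants, rose by 0.29 ± 0.06. Arhgdib, which holds Rac in the cytosol, rose by 0.27 ± 0.05. Pik3cd, a catalytic subunit of another phosphoinositide kinase, was the gene that fell (-0.24 ± 0.06) and is named after its value was seen. When WT replicate 1 was left out, and likewise WT replicate 2, 2 genes of the list rose and 0 fell, and the calls of Pik3r5 and Arhgdib were lost in both fits. Leaving out KO replicate 1 gave 6 higher and 2 lower genes, leaving out KO replicate 2 gave 6 higher, and 3 fell with CPM or upper-quartile scaling. The call of Pik3r5 was also lost with CPM scaling.

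Oxidase genes of other tissues were mostly at low values. Of 9 genes, 4 were tested, and 0 rose and 0 fell by limma, edgeR or DESeq2. At an unadjusted p below 0.05, 1 was higher and 0 lower, and limma without the variance trend called 1 lower. The pair with the lowest p were Duox2, the thyroid oxidase, with 39.4 and 20.6 in KO, against 7.77 and 8.54 in WT (1.69 ± 0.49, adjusted p = 0.0596), and the row of Nox1, the colon oxidase, with 27.3 and 16.5 in KO, against 11.7 and 13.4 in WT (0.72 ± 0.46, adjusted p = 0.304). Noxo1, the organiser of the Nox1 oxidase, is named after its values were seen and held most of the list's reads, with 267 and 314 in KO, against 317 and 309 in WT, so its groups overlapped. Nox4, the kidney oxidase, had 6.06 and 6.60 in KO, against 11.66 and 10.98 in WT, and is likewise named after its values were seen (adjusted p = 0.334).

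Enzymes that supply NADPH, the electron donor of the oxidase, showed 3 of 11 tested genes higher and 1 lower, with a median of 0.11. The shares of all tested loci were 11.9% higher and 8.97% lower. G6pdx, the entry enzyme of the pentose phosphate pathway, rose to 21340 ± 1146 in KO, against 16241 ± 313 in WT (0.39 ± 0.05, adjusted p = 0.00728). Pgd, which makes NADPH later in that pathway, rose by 0.39 ± 0.07, and the NAD kinase gene Nadk by 0.35 ± 0.05. Idh2, the mitochondrial NADP-linked isocitrate dehydrogenase, fell by 0.38 (adjusted p = 0.00714). No gene of this list was called without WT replicate 1, and without WT replicate 2, 1 rose and 1 fell. Without KO replicate 1, 2 genes fell.

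Genes that use or remove oxidants showed 3 of 26 tested members higher and 4 lower, with a median of 0.00. Over all tested loci 11.9% rose and 8.97% fell, so the higher count is near that share. Gsr, which regenerates reduced glutathione with NADPH, rose to 34011 ± 1292 in KO, against 21039 ± 1068 in WT (0.69 ± 0.06, adjusted p = 0.00182). The peroxiredoxin gene Prdx5 rose by 0.60 ± 0.06 and the glutaredoxin gene Glrx by 0.44 ± 0.05. Srxn1, which repairs over-oxidised peroxiredoxins, changed by -0.87 ± 0.21 at low values (107 ± 5.30 in KO and 197 ± 29.8 in WT). Mpo, the granule enzyme that turns hydrogen peroxide into hypochlorous acid, is named outside the rule for its role. It had 441863 and 370120 in KO, against 525289 and 474770 in WT, and did not pass (-0.30 ± 0.10, adjusted p = 0.0747). In the fits without WT replicate 1 or without WT replicate 2, 1 gene fell, and the call of Srxn1 was lost there and without KO replicate 1. With CPM scaling 6 fell.

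Transcription factors with a known role at oxidase promoters, mostly from human myeloid cells, showed 4 of 17 genes higher and 4 lower. Their median was 0.04, and 11.9% of all tested loci rose and 8.97% fell. Cebpe, a factor of late granulocyte maturation, rose to 8421 ± 66.7 in KO, against 5431 ± 226 in WT (0.63 ± 0.05, adjusted p = 0.00206). The homeobox genes Hoxa9 and Hoxa10 changed by -0.97 ± 0.18 and -1.37 ± 0.28. Spi1, which encodes PU.1 and is listed under its older name Sfpi1, rose by 0.40 ± 0.06 (adjusted p = 0.00873). It was chosen after its value was seen, because its factor recognises the core marked in the Cybb promoter. A link between Spi1 and the rise of Cybb was not tested. Without WT replicate 1, 2 genes of this list rose and 1 fell, and without WT replicate 2, 1 fell, with the calls of Hoxa9 and Hoxa10 lost in both fits. Without KO replicate 2, 6 fell.

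Channels and pumps that could balance charge or pH in phagocytes showed 2 of 12 genes higher and 0 lower, with a median of 0.14. Among all tested loci 11.9% were higher and 8.97% lower. At an unadjusted p below 0.05 limma gave 6 higher and 0 lower, but the share of all loci at that threshold was not computed. Both edgeR and DESeq2 called 0 lower. Trpm2, a cation channel gated by ADP-ribose and opened in oxidative conditions, had 1587 and 1578 in KO, against 615 and 766 in WT (1.20 ± 0.12, adjusted p = 0.0034). The row of Clcn3, a chloride-proton exchanger of intracellular vesicles, rose by 0.28 ± 0.06 (adjusted p = 0.0257). Without WT replicate 1, and likewise without WT replicate 2, Trpm2 was the gene of the list that passed.

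**Figure D5:**
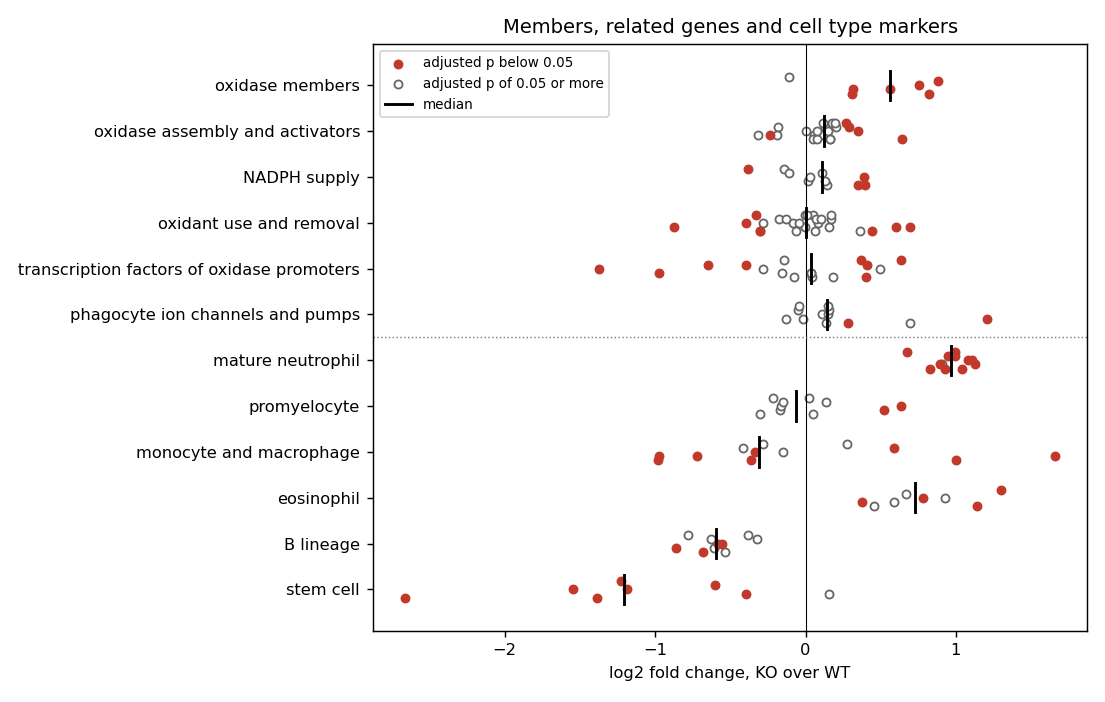
Log2 fold changes of KO over WT for the members, for related gene lists and, below the dotted line, for cell type markers. Each point is a tested gene, filled where the adjusted p was below 0.05, and bars are medians, which lie at 0.56 for the members, 0.97 for mature neutrophil markers and -0.06 for promyelocyte markers.

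Neutrophil and eosinophil markers rose with the members, while monocyte and macrophage markers, of other cells that use the oxidase, moved in both directions. For the marker counts that follow, the shares of all tested loci were 11.9% higher and 8.97% lower. Of 12 mature neutrophil markers 11 rose and 0 fell, with a median of 0.97. Their summed normalised read count was 2130734 and 1993093 in KO, against 1057768 and 1180440 in WT. Of 8 eosinophil markers 4 rose and 0 fell, with a median of 0.73 and sums of 304099 and 296566 in KO, against 149876 and 149933 in WT. Of 10 promyelocyte markers 2 rose and 0 fell, with a median of -0.06. Their sums were lower in KO, at 711087 and 606223, against 796152 and 727589 in WT. Most of the sum in every library was Mpo, which did not pass, so the sums largely describe that gene. The promyelocyte markers that rose include Cebpe, the factor of late granulocyte maturation also counted among the transcription factors above. Of 12 monocyte and macrophage markers 3 rose and 5 fell, with a median of -0.31, and the sums overlapped, with 37108 and 42467 in KO, against 39165 and 41012 in WT. Of 10 B lineage markers 0 rose and 4 fell, with sums of 88219 and 61814 in KO, against 115293 and 110931 in WT. Of 8 stem cell markers 0 rose and 7 fell, with sums of 5228 and 5057 in KO, against 6823 and 6538 in WT. Erythroid markers, of cells that use no phagocyte oxidase, rose as well, in 7 of 9 genes, with sums of 143905 and 159421 in KO, against 85085 and 90901 in WT. At an unadjusted p below 0.05, limma gave 0 lower neutrophil, eosinophil or erythroid markers, 0 higher B lineage or stem cell markers and 3 lower promyelocyte markers. Counts of 0 were also 0 with edgeR and DESeq2, other than 3 lower promyelocyte markers with DESeq2. No marker of these lists was at 0 in any library. The part of these cell types in the members' values was not tested.

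Those marker counts varied when a library was left out. Without WT replicate 1 or without WT replicate 2, 12 neutrophil and 2 eosinophil markers rose, 1 promyelocyte marker rose, 2 monocyte markers rose and 1 fell, and 0 B lineage markers fell. The count of lower stem cell markers, 7 in the main fit, then dropped strongly. That of higher erythroid markers was smaller without WT replicate 1 and larger without WT replicate 2. Without KO replicate 1 or 2, the count of higher eosinophil markers was 7 or 6 and that of lower B lineage markers 9 or 8. Without KO replicate 1, 4 promyelocyte markers fell, and with upper-quartile or CPM scaling 3 fell.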

How the data were processed

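RNA of Lin-Kit+ cells was sequenced in 2 KO and 2 WT libraries, grouped by their titles. The submitters' processing notes name STAR 2.3.1t as aligner and mm9 as build; the sources used here do not give the counter, annotation, strand handling or scaling tool. The deposited signal values are reads that the authors scaled by a single factor for each library, which the values show: divided by its smallest nonzero value, 100% of a library's values came out whole (tolerance 0.001 reads). A count of 0 allows 3 reads, or 2.27 to 3.89 on the deposited scale, for counting error only. Of 22849 rows, 4893 that join neighbouring loci were left out.

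Rows that reached 10 in 2 or more libraries entered limma 3.58.1 (R 4.3.3), fitted with a variance trend on log2(value + 1) and with no term but genotype. P-values were adjusted by Benjamini-Hochberg over 13764 loci at 0.05. The log scale understates changes of low loci. edgeR 4.0.16 and DESeq2 1.42.0 on the recovered reads were alternatives, and edgeR called 2839 loci against 2875 by limma. Other alternatives were pseudocounts, filters, scaling, limma-voom, no variance trend, a replicate block and leaving out each library. The fit was also run on simulated reads with the same dispersion at every locus, a simpler setting than these data. No conclusion is drawn from that run. Members and gene lists were chosen with earlier results of these data known. From each list the text names up to 4 called genes with the largest fold change, or the 2 with the lowest p. Of 192 list entries 189 matched a row, 4 by an older symbol. Not all subunits of the complex are members, and some loci given by the rules are not reported here.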

Additional observations from a re-analysis of the deposited data

How the results depend on the processing

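The count of 6 called members was 6 or 7 under 14 of the 17 alternatives. It was 3 with limma without the variance trend (Cybb, Cyba and Ncf1 kept), where the count of all called loci was 661 against 2875, and it ranged from 4 to 6 when 1 library was left out. Over those 4 fits the count of all called loci ranged from 869, without WT replicate 1, to 3233, without KO replicate 1. No member changed sign under any alternative. The share of higher calls was 57% by the authors' scaling, 42.6% with upper-quartile scaling and 39.2% with CPM scaling, which moved the median of all tested loci to -0.06 and -0.07. With the replicate number as a block, 6 members and 3439 loci were called. The block also separated the high-Xist libraries from those with high Y-linked transcripts. With that block 8 B lineage markers fell, 7 eosinophil markers rose, 2 promyelocyte markers fell and 2 activator genes fell, against 4, 4, 0 and 1. DESeq2 called 7 activator genes higher, and 3 monocyte markers fell with limma-voom or with no filter on low values. Without the variance trend every list that had calls had fewer, among them 5 higher neutrophil and 2 higher erythroid markers, and 0 genes of NADPH supply and 0 B lineage markers were called. Deviations of same-numbered libraries correlated at 0.246 over loci, with 2 pairs only, so the numbers are not taken as a pairing in the main fit. Depth did not limit the members, which had at least 6436 reads each in every library, but limits Nox1, Nox4 and Duox2.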

Other observations

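Rows that join a member with a neighbouring locus were left out of the comparisons and held few reads. Over all 4 libraries together they held 12 reads for Cyba in 2 rows, 2 reads for Ncf1 in 1 row, 2 reads for Rac1 in 2 rows and 3 reads for Rac2 in 2 rows. No single-locus row of the table overlapped the span of a member's row.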
